A study of Mus musculus with 8 samples.

Results

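Transcripts of 10 myeloid C-type lectin receptors were followed in the cheek skin of mice that lack the T-box transcription factor TBX20 in keratinocytes. The receptors are Clec4a1, Clec4a2, Clec4a3, Clec4b1, Clec4d, Clec4e, Clec4n, Clec7a, Clec5a and Clec12a, and they are 10 of the 18901 genes in the deposited table. They were chosen by name, with their difference between the 2 genotypes already known, so that difference is described here and not tested. Skin was taken from 4 TBX20fl/fl;K14-Cre mice (cKO mice), in which Cre driven by the keratin 14 promoter removes exons 2 and 3 of Tbx20 in keratinocytes, and from 4 TBX20fl/fl littermates without Cre (control mice). All 8 mice were females of 7 weeks on a C57BL/6 background, and all carried the floxed alleles. Each received 10 µg of B-type natriuretic peptide (BNP), a peptide that elicits scratching, by intradermal injection into the cheek, was recorded for 30 min and was euthanised 5 h later. Injected skin alone was analysed here, so no level before BNP can be given. Whole skin was sequenced, 1 library per mouse, and in such bulk samples fewer cells of a type cannot be told apart from less RNA per cell.

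C-type lectin receptors are cell surface proteins with which macrophages, dendritic cells, monocytes and neutrophils recognise sugars and lipids of microbes and of damaged cells. Most activating members carry no signalling motif of their own. Mincle (Clec4e), MCL (Clec4d), Dectin-2 (Clec4n) and DCAR (Clec4b1) pair with the Fc receptor gamma chain, encoded by Fcer1g, and MDL-1 (Clec5a) pairs with DAP12, encoded by Tyrobp. Dectin-1 (Clec7a), the receptor for beta-glucan, has a tyrosine motif in its own tail. All of these routes recruit the kinase Syk, from which the adaptor Card9 with Bcl10 and Malt1 leads to NF-kappaB and to cytokines such as TNF and IL-10. DCIR (Clec4a2) and MICL (Clec12a) carry inhibitory motifs that recruit the phosphatases Ptpn6 and Ptpn11. Clec4a1 and Clec4a3 belong to the same DCIR subfamily.

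All 10 receptors had lower levels in cKO than in control skin. The difference was largest for Clec4d and Clec4e, whose levels were 3.38-fold and 3.09-fold lower (log2 fold change -1.76, SE 0.450, and -1.63, SE 0.362, 4 mice per group), and smallest for Clec4a1, at 1.38-fold (-0.46, SE 0.203). The other 7 were between 1.88-fold and 2.36-fold lower. The median log2 fold change of the 10 receptors was -1.08, whereas that of all 17124 genes tested was 0.03. Fold changes are of counts scaled by TMM normalisation and fitted with edgeR.

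The 10 genes lie on chromosome 6 of GRCm38. Clec4a1, Clec4a3, Clec4b1, Clec4a2, Clec4n, Clec4d and Clec4e stand in this order between 122921848 and 123289871, a stretch of 368 kb that holds 9 genes of the table. The other genes of the stretch, Clec4a4 and Clec4b2, had at most 11 and 12 counts in any mouse. Clec4d (chr6:123262107-123275268, plus strand) and Clec4e (chr6:123281789-123289871, minus strand) are neighbours whose ends are 6520 bases apart. Clec12a (chr6:129349783-129365303, plus strand) and Clec7a (chr6:129461591-129472785, minus strand) lie in a second cluster of lectin genes, and Clec5a (chr6:40574898-40585805, minus strand) lies far from both. Hence the 2 receptors with the largest differences are adjacent genes, while Clec4a1, with the smallest, is the first gene of the same stretch.

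The 250 bases upstream of the annotated start were available from RefSeq (GRCm38.p6) for 9 of the 10 receptors, all except Clec4n. The letters GAGGAA, the purine box read by ETS factors such as PU.1 of myeloid cells, were present on either strand in 8 of these 9 genes, in 9 of their 11 windows, and in 23.3% of the 32851 windows of all genes. The C/EBP letters TTGCNNAA were found in Clec4e and Clec12a, against 9.56% of all windows, and the AP-1 letters TGANTCA in Clec12a, against 6.75%. AGGTGT, the core letters bound by T-box factors, were in none of the 9 genes and in 11.8% of all windows. Such matches are a description of the letters and no evidence of binding. The windows of Clec4e (chr6:123289872-123290121, minus strand) and Clec4d (chr6:123261857-123262106, plus strand) are shown because these neighbours differed most, and that of Clec7a (chr6:129472780-129473029, minus strand) because it is a receptor with its own tyrosine motif from the other cluster. Capitals mark the matches, which begin 123 and 56 bases (GAGGAA) and 66 bases (C/EBP) before the start in Clec4e, 240 bases before it in Clec4d and 96 bases before it in Clec7a.
Clec4e: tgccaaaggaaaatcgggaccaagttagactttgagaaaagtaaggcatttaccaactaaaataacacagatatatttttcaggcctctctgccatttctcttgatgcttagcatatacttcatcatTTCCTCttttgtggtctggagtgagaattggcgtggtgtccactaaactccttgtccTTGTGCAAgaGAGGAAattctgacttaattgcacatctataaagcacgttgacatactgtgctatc
Clec4d: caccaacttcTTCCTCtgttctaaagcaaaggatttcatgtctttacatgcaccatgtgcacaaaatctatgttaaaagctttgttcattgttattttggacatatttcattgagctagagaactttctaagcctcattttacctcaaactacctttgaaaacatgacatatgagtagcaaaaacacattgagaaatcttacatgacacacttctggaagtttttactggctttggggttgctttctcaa
Clec7a: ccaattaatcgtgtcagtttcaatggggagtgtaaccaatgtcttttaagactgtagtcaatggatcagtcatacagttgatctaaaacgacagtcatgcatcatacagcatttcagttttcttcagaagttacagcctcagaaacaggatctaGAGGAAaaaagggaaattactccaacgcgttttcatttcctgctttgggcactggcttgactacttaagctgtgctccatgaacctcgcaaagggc
The purine box of Clec4e nearest the start stands beside its C/EBP letters, whereas Clec4d, its neighbour, has a single purine box far upstream.

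The libraries held 16056282 to 19880654 counts, so that 3 counts correspond to 0.14 to 0.254 CPM (counts scaled to library size and, here and throughout, by TMM), and these floors cover counting error only. The receptors had 141 to 1235 counts per mouse, and all 10 passed the filter on low counts. Tbx20 itself had 2, 1, 0 and 1 counts in cKO mice and 2, 1, 0 and 3 in control mice, too few to check the deletion. Keratinocyte markers, summed over 8 genes, were at 3669 to 5169 FPKM (fragments per kilobase of transcript, scaled to library size), and skeletal muscle markers, summed over 6 genes, at 7769 to 13700 FPKM, so the samples held muscle as well as skin. Control replicate 2 stood apart from the other 7 libraries, with a TMM factor of 0.735 (1.01 to 1.08 in the others). In that library transcripts up to 1500 bases long had a median of 2.05 times the level of the other control mice (2364 genes), whereas those above 3000 bases had 0.591 times (6185 genes). The difference of each receptor and the list medians it moved by over 1.5 times are therefore given with and without it.

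**Figure D1:**
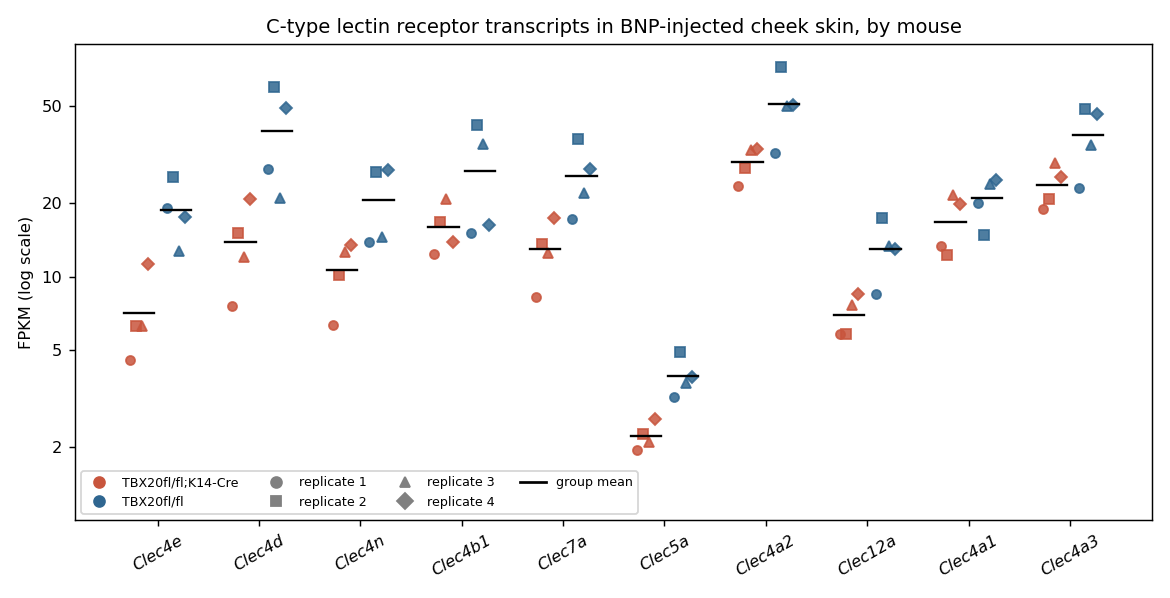
Level of each receptor in FPKM (vertical axis, log scale) in 4 TBX20fl/fl;K14-Cre mice (red) and 4 TBX20fl/fl mice (blue), with 1 point per mouse, the shape giving the replicate number and the bar the group mean. Clec4d, Clec4e, Clec4n and Clec5a show no overlap between the groups, and within each group Clec5a lies below all other receptors.

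Levels were compared between receptors in FPKM, which accounts for transcript length. In control mice Clec4a2 had the highest mean level, 51.2 ± 16.4 FPKM (SD, n = 4), followed by Clec4d (39.4), Clec4a3 (38.2), Clec4b1 (27.0), Clec7a (25.9), Clec4a1 (20.9), Clec4n (20.7), Clec4e (18.7), Clec12a (13.02) and Clec5a (3.91 ± 0.729). In cKO mice Clec4a2 was again the highest, at 29.45 ± 4.75 FPKM, and Clec5a the lowest, at 2.225 ± 0.284. In between, Clec4d moved from the second place in control mice to the fifth in cKO mice, where it followed Clec4a3 (23.7), Clec4a1 (16.8) and Clec4b1 (15.9). The control order depended on control replicate 2. Without that mouse Clec4d (32.6) followed Clec4a3 (34.7), and Clec4b1 (22.06) followed Clec4a1 (22.97) and Clec7a (22.3). The ranges of neighbours in either order overlapped, with the exception of Clec5a, whose highest value (4.92 in control and 2.61 in cKO mice) was below the lowest value of every other receptor in the same group (8.49 and 4.54).

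Among the receptors that pair with the Fc receptor gamma chain, Mincle (Clec4e) is the receptor for mycobacterial cord factor and for the nuclear protein Sap130 released by dying cells. Its level was 4.54, 6.29, 6.29 and 11.25 FPKM in cKO mice and 19.02, 25.65, 12.67 and 17.52 FPKM in control mice. Every control mouse was above every cKO mouse, with means of 7.09 ± 2.89 and 18.7 ± 5.36 FPKM. MCL (Clec4d), which forms complexes with Mincle at the cell surface, was at 7.59, 15.03, 12.00 and 20.75 FPKM in cKO mice and at 27.62, 59.76, 20.94 and 49.25 FPKM in control mice. Its groups did not overlap, but the margin was narrow, since the highest cKO value (20.75) lay just under the lowest control value (20.94). Without control replicate 2 the log2 fold changes were -1.26 for Clec4e and -1.28 for Clec4d.

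Dectin-2 (Clec4n), a receptor for fungal mannans, was at 6.34, 10.19, 12.61 and 13.47 FPKM in cKO mice and at 13.88, 26.87, 14.56 and 27.41 FPKM in control mice. The groups again did not overlap, although control replicates 1 and 3 lay close to the highest cKO mouse. Its log2 fold change was -1.17 (SE 0.355), and -0.84 without control replicate 2. DCAR (Clec4b1), an activating receptor for mycobacterial glycolipids, was at 12.36, 16.68, 20.82 and 13.82 FPKM in cKO mice and at 15.10, 41.81, 34.84 and 16.23 FPKM in control mice. Here the groups overlapped, because control replicates 1 and 4 fell within the cKO range, and the log2 fold change of -1.06 (SE 0.426) became -0.56 without control replicate 2. Clec4b1 also shares 8.68% of its 50-base stretches with Clec4a2, so that reads from those stretches could be counted for either gene.

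Dectin-1 (Clec7a) was at 8.25, 13.54, 12.53 and 17.45 FPKM in cKO mice and at 17.23, 36.61, 21.99 and 27.69 FPKM in control mice. In FPKM only cKO replicate 4 and control replicate 1 overlapped, and in normalised CPM the groups were separate, at 16.8 to 34.1 and 35.1 to 104.7. Its log2 fold change was -1.24 (SE 0.347), and -0.83 without control replicate 2. MDL-1 (Clec5a), which signals through DAP12, was at 1.95, 2.25, 2.09 and 2.61 FPKM in cKO mice and at 3.20, 4.92, 3.65 and 3.88 FPKM in control mice. Relative to its mean it had the smallest SD of the receptors among the cKO mice, and the groups were well separated, with a log2 fold change of -1.02 (SE 0.251) that was -0.72 without control replicate 2.

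The inhibitory receptors showed the same direction. DCIR (Clec4a2) was at 23.43, 27.88, 33.13 and 33.38 FPKM in cKO mice and at 32.24, 72.36, 49.87 and 50.34 FPKM in control mice, with control replicate 1 inside the cKO range. MICL (Clec12a), which recognises uric acid crystals from dead cells, was at 5.79, 5.81, 7.63 and 8.5 FPKM in cKO mice and at 8.49, 17.32, 13.28 and 12.98 FPKM in control mice. Its groups touched in FPKM, at control replicate 1 and cKO replicate 4, and were separate in normalised CPM, at 7.37 to 11.2 and 11.8 to 32.6. The log2 fold changes were -1.01 (SE 0.326) for Clec4a2 and -1.11 (SE 0.308) for Clec12a, and -0.61 and -0.76 without control replicate 2. Activating and inhibitory receptors were thus both lower.

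Clec4a3 was at 18.98, 20.84, 29.31 and 25.71 FPKM in cKO mice and at 23.13, 48.61, 34.59 and 46.39 FPKM in control mice, a log2 fold change of -0.91 (SE 0.302), or -0.60 without control replicate 2. Clec4a1 was at 13.38, 12.28, 21.66 and 19.90 FPKM in cKO mice and at 20.07, 14.78, 23.98 and 24.85 FPKM in control mice. The groups of both genes overlapped. Clec4a1 was unlike the other 9 receptors in control replicate 2, where its normalised CPM was 0.899 times the mean of the other control mice, while that of the other receptors was 1.93 to 2.66 times. Its log2 fold change hardly moved without that mouse, from -0.46 to -0.50. Set against all genes of like length in control replicate 2, the 6 receptors with transcripts under 1500 bases were at 1.97 to 2.66 times the other control mice, near the median of 2.05. Clec7a (2.30) and Clec4e (2.19) were above the median of 1.16 for transcripts of 1500 to 3000 bases, Clec4a1 (1509 bases, 0.899) was below it, and Clec5a (1.93) was above the median of 0.591 for longer ones.

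Groups did not overlap for 4 of the 10 receptors in FPKM, and 1.87% of all genes tested were lower in cKO mice without overlap. In normalised CPM the corresponding numbers were 6 of 10 receptors and 3.27% of genes. Both counts were the same without control replicate 2. The labels do not state that same-numbered mice belong together. In normalised CPM all 10 receptors were lower in the cKO mouse of all 4 same-numbered pairs, as were 14.3% of all genes. These counts follow from how the receptors were selected and are given as a description. Over all genes, edgeR's quasi-likelihood test called no gene at an adjusted p under 0.05 (0 of 17124, 0%), with 1431 genes at an unadjusted p under 0.05 and a smallest adjusted p of 0.498, so none of the 10 receptors passed either. DESeq2 called 10 genes, of which Clec4e was 1.

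**Figure D2:**
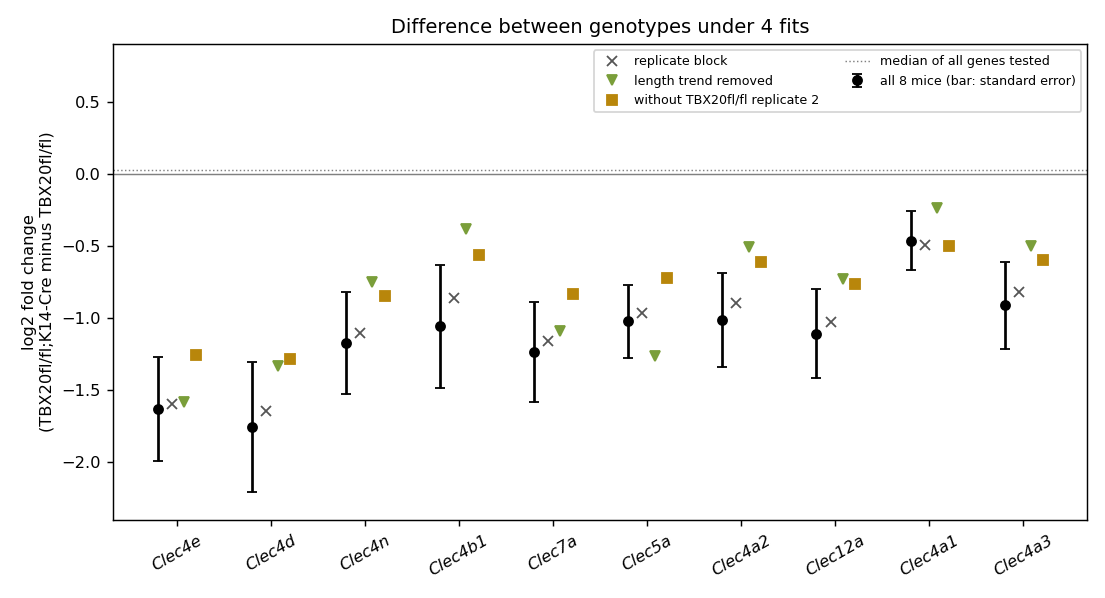
Log2 fold change of each receptor, TBX20fl/fl;K14-Cre minus TBX20fl/fl (vertical axis), with all 8 mice (black, bar: standard error), with the replicate number as a block, with the transcript length trend removed and without control replicate 2. All values are below 0, Clec4d and Clec4e are the lowest in each fit and Clec4a1 is the highest.

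The ends of the order of receptors were the same under every setting, and the middle was not. Clec4d and Clec4e were the most negative pair, and Clec4a1 the least negative receptor, in 18 of 18 settings of normalisation, test, filter and left-out mouse. Over these settings the log2 fold change ranged from -2.01 to -1.28 for Clec4d, from -1.93 to -1.26 for Clec4e and from -0.61 to -0.24 for Clec4a1. Clec4b1 ranged from -1.29 to -0.36 and Clec5a from -1.26 to -0.60, and both changed places with other receptors. Removing from each mouse the trend of counts with transcript length brought the median of the 10 receptors from -1.08 to -0.74, as did leaving out control replicate 2 (-0.74). The length-adjusted value was -1.58 for Clec4e, with an implied transcript of 2469 bases, -1.09 for Clec7a (2101 bases), -1.33 for Clec4d (1287 bases) and -1.26 for Clec5a (3738 bases), but -0.38 for Clec4b1 (718 bases) and -0.50 for both Clec4a2 (1050 bases) and Clec4a3 (1219 bases). It stayed closest to the unadjusted value for Clec4e and Clec7a, and it lay further from 0 for Clec5a, the longest of the 10 transcripts.

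**Figure D3:**
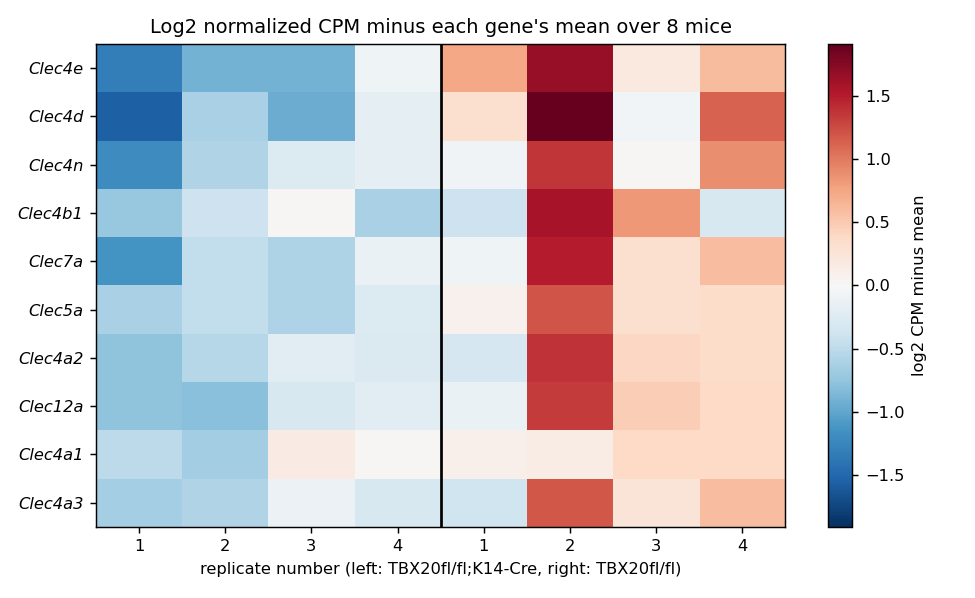
Log2 normalised CPM of each receptor (rows) in each mouse (columns, TBX20fl/fl;K14-Cre on the left and TBX20fl/fl on the right), minus the mean of that receptor over the 8 mice. Control replicate 2 is the highest column for 9 of the 10 receptors, and cKO replicate 1 is the lowest of its group for 8.

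The receptors varied together from mouse to mouse. Control replicate 2 had the highest normalised CPM of its group for 9 of the 10 receptors, against 40.2% of all genes, and control replicate 1 the lowest for 8, against 25.5%. Transcripts up to 1500 bases had a median of 2.05 times the other control mice in control replicate 2. For the short receptors the share over all genes is therefore not a like comparison. In the cKO group replicate 1 was the lowest for 8 receptors (25.1% of all genes), while replicate 4 was the highest for 6 and replicate 3 for 4. The summed level of the 10 receptors was 102.6, 130.8, 158.1 and 166.8 FPKM in cKO mice and 180.0, 348.7, 230.4 and 276.5 FPKM in control mice, so the sums did not overlap. The share of each receptor in this sum overlapped between the groups and was not tested. Clec4d contributed 9.73 ± 2.61% in cKO and 14.9 ± 3.98% in control mice, Clec4e 4.99 ± 1.22% and 7.44 ± 2.22%, and Clec4a1 12.0 ± 1.90% and 8.70 ± 3.11% (10.2 ± 1.10% without control replicate 2), whereas Clec12a contributed 5.00 ± 0.504% and 5.04 ± 0.502%.

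The genes through which the receptors signal were examined next. Of 24 adaptor and proximal signalling genes 13 were lower and 11 higher in cKO mice and none passed the test, with 4 at an unadjusted p under 0.05 in the lower direction, which 5.91% of all genes reached. The list's median log2 fold change was -0.14, against 0.03 over all genes. The number lower was 20 of 24 without control replicate 2. Among them were both partner chains. Fcer1g was at 100.3 ± 20.3 FPKM in cKO and 169.6 ± 40.4 FPKM in control mice (log2 fold change -0.98, SE 0.281, edgeR adjusted p = 0.498), and Tyrobp at 141.7 ± 26.3 and 240.4 ± 83.6 FPKM (-1.01, SE 0.337, adjusted p = 0.498). With the length trend removed these differences were -0.35 for Fcer1g and -0.28 for Tyrobp, and without control replicate 2 they were -0.66 and -0.57. Downstream, Syk was at 8.72 ± 2.18 and 7.52 ± 4.06 FPKM (0.13, SE 0.353), a value that turned to -0.13 without control replicate 2. Card9 was at 2.10 ± 0.252 and 2.20 ± 0.640 FPKM (-0.17, SE 0.234, and 0.01 with the length trend removed), and the phosphatase Ptpn6 at 19.1 ± 3.76 and 19.6 ± 5.74 FPKM (-0.16, SE 0.184, and -0.27 without control replicate 2). The genes with the smallest p in the higher direction were Trim62 (0.32, SE 0.233), the kinase Src (0.47, SE 0.363) and the phosphatase Ptpn11 (0.32, SE 0.301), and without control replicate 2 these were at 0.14, 0.19 and 0.07. Lcp2, which encodes the scaffold SLP-76, was also among the 4 (-0.44, SE 0.177, and -0.60 with the length trend removed).

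**Figure D4:**
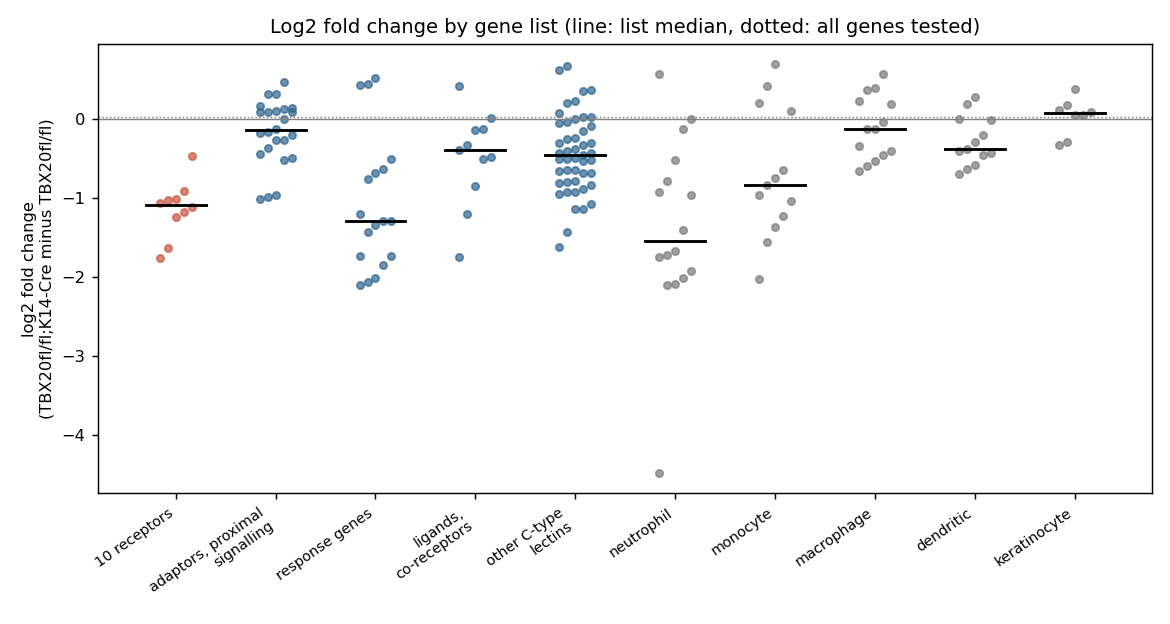
Log2 fold change, TBX20fl/fl;K14-Cre minus TBX20fl/fl (vertical axis), of each gene in the 10 receptors (red), 4 lists of related genes (blue) and 5 marker lists (grey), with the list median as a bar and the median of all genes tested as a dotted line. The medians are -1.08 for the receptors, -1.29 for response genes, -0.14 for adaptors and -1.54 for neutrophil markers.

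Of 18 genes that these receptors are known to induce, 15 were lower and 3 higher in cKO mice. None passed the test. An unadjusted p under 0.05 was reached by 12 in the lower direction, against 5.91% of all genes, and by 1, Egr2, in the higher, against 2.45%. The list's median log2 fold change was -1.29, and -0.95 without control replicate 2. Tnf was at 2.305 ± 1.04 FPKM in cKO and 4.93 ± 1.86 FPKM in control mice (-1.29, SE 0.394, edgeR adjusted p = 0.498), and Il10, an anti-inflammatory cytokine, at 1.5 ± 0.301 and 3.22 ± 1.29 FPKM (-1.34, SE 0.395, and -0.89 without control replicate 2). Cxcl2, a chemokine that attracts neutrophils, was at 6.99 ± 5.32 and 25.2 ± 11.6 FPKM (-2.10, SE 0.637) and Il1b at 33.0 ± 19.9 and 113.8 ± 60.1 FPKM (-2.06, SE 0.563). Ccl3 was at 6.45 ± 3.68 and 18.03 ± 7.98 FPKM (-1.73, SE 0.509, and -1.10 with the length trend removed). The 3 genes on the other side were Egr2 (18.1 ± 1.96 and 12.2 ± 3.49 FPKM), Egr3 (18.2 ± 1.00 and 11.8 ± 4.95 FPKM) and Il23a, which was at most 0.23 FPKM in any mouse. Myeloid cells make many of these transcripts in response to other receptors as well, and no sample isolates a single receptor.

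Among 47 other C-type lectin genes that could be tested, 37 were lower and 10 higher, none passed the test, and the median log2 fold change was -0.45, or -0.29 without control replicate 2. An unadjusted p under 0.05 was reached by 13 in the lower and 2 in the higher direction, against 5.91% and 2.45% of all genes. Clec10a, the galactose-type lectin of macrophages and dendritic cells, was at 47.7 ± 8.68 and 41.7 ± 9.26 FPKM (0.02, SE 0.210, and 0.11 without control replicate 2 or 0.30 with the length trend removed), and Mrc1, the macrophage mannose receptor, at 58.6 ± 14.1 and 45.9 ± 15.4 FPKM (0.23, SE 0.225). The value of Mrc1 was 0.11 without control replicate 2 and turned to -0.10 with the length trend removed. Other lectins of dermal macrophages and dendritic cells had values below 0, such as Mgl2 (-0.45, SE 0.278) and Cd209d (-0.53, SE 0.330), which were -0.21 and -0.18 without control replicate 2 and -0.12 and 0.06 with the length trend removed. Cd207, the langerin of Langerhans cells, was at 16.3 ± 2.07 and 22.3 ± 6.65 FPKM (-0.69, SE 0.299, and -0.29 without control replicate 2). The lymphocyte lectins Klrd1 (-1.14, SE 0.350), Cd69 (-1.13, SE 0.365) and Klrk1 (-0.94, SE 0.316) had the smallest p in the lower direction, and their values were -0.67, -0.68 and -0.57 without control replicate 2. In the higher direction these were the stromal lectins Cd248 (0.67, SE 0.291), Mrc2 (0.62, SE 0.274) and Pla2r1 (0.35, SE 0.162). With the length trend removed Mrc2 was at 0.31 and Pla2r1 turned to -0.05. Clec4a4 and Clec4b2, inside the Clec4 stretch, were too low to compare, at no more than 0.53 and 0.76 FPKM in any mouse.

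Of 11 reported ligands and co-receptors that could be tested, 9 were lower and 2 higher, with a median log2 fold change of -0.39, and none passed the test. With the length trend removed the median was -0.24 and 8 were lower, and on the log2(FPKM + 1) scale 7 were lower. Sap130, the Mincle ligand, was at 6.47 ± 0.638 and 4.52 ± 2.15 FPKM (0.42, SE 0.288, and 0.18 without control replicate 2). Tlr2, which acts together with Dectin-1, was at 11.05 ± 2.27 and 13.8 ± 3.63 FPKM. The smallest p belonged to Trem1 (1.35 ± 0.746 and 3.89 ± 1.73 FPKM, log2 fold change -1.74, SE 0.493) and Cd14 (17.3 ± 6.24 and 34.4 ± 11.2 FPKM, -1.20, SE 0.345), both expressed by neutrophils and monocytes. Anxa1 followed, at 891.0 ± 106.0 and 1350 ± 450.4 FPKM (-0.84, SE 0.332). Its value was -0.39 without control replicate 2 and -0.43 with the length trend removed. Itgam, the integrin chain that works with Dectin-1, was at 15.9 ± 5.46 and 14.7 ± 7.79 FPKM (0.01, SE 0.360). The value of Itgam turned to -0.22 without control replicate 2, where 10 of the 11 genes were lower, and to -0.18 with the length trend removed.

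**Figure D5:**
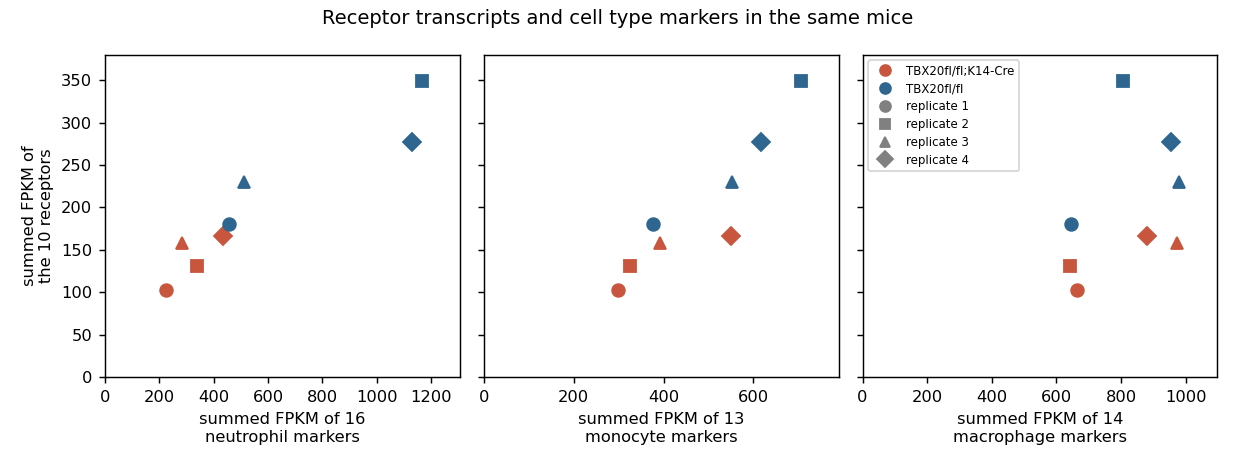
Summed FPKM of the 10 receptors (vertical axis) against the summed FPKM of neutrophil, monocyte and macrophage markers (horizontal axes) in the same 8 mice, coloured by genotype and shaped by replicate number. Neutrophil sums are at 223.7 to 432.8 in cKO and 456.4 to 1166 in control mice, whereas macrophage sums span the same range in both groups.

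Markers of the myeloid cells that carry these receptors moved with them to different degrees. Of 16 neutrophil markers 15 were lower in cKO mice (median log2 fold change -1.54, none past the test, 11 at an unadjusted p under 0.05, against 5.91% of all genes), and their summed level was 223.7 to 432.8 FPKM in cKO and 456.4 to 1166 FPKM in control mice, without overlap. S100a8, S100a9 and Il1r2 made up 84.6 to 92.1% of that sum in each mouse, and the sums of the other 13 markers overlapped, at 32.8 to 66.6 FPKM in cKO and 56.1 to 93.4 FPKM in control mice. S100a8, a subunit of calprotectin that stressed keratinocytes also make, was at 75.5 ± 30.8 and 274.4 ± 173.6 FPKM, while Ly6g was at 0.12 to 0.23 FPKM in cKO and 0.37 to 0.56 FPKM in control mice, on only 2 to 4 and 6 to 9 counts, and the granule genes Mpo, Elane, Ngp and Ltf stayed below 0.7 FPKM. The granule gene Camp, at 0 to 1.47 FPKM in cKO and 0.10 to 0.79 FPKM in control mice, was the marker that was higher (0.57, SE 1.05, and 1.64 without control replicate 2). Of 13 monocyte markers 9 were lower (median -0.83, or -0.56 without control replicate 2; Ms4a4c was among the genes called by DESeq2), with sums of 299.5 to 549.5 and 376.9 to 704.9 FPKM. Of 14 macrophage markers 9 were lower and 5 higher (median -0.13, and 0.00 with the length trend removed), with sums of 642.0 to 974.6 and 645.8 to 980.9 FPKM. The part of any cell type in the receptors' lower levels was not tested.

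Other cell types were compared in the same way. Dendritic cell markers were at 1727 to 2933 and 1955 to 3511 FPKM (10 of 13 lower, median log2 fold change -0.38), and Langerhans cell markers at 121.2 to 137.4 and 120.6 to 124.5 FPKM (3 of 4 lower, -0.32). Without control replicate 2 these medians were -0.19 and -0.08. With the length trend removed that of dendritic cell markers was -0.11 and that of Langerhans cell markers turned to 0.04. Mast cell and basophil markers did not overlap, at 487.1 to 547.1 and 596.1 to 893.4 FPKM (8 of 9 lower, -0.75), while T and NK cell markers were at 25.2 to 34.0 and 23.3 to 54.3 FPKM (7 of 8 lower, -0.64). The medians without control replicate 2 were -0.40 and -0.39, and with the length trend removed they were -0.43 and -0.28. Markers shared by all leukocytes were at 276.6 to 455.3 and 418.3 to 645.8 FPKM (6 of 7 lower, -0.28, and -0.43 with the length trend removed). The median was 0.07 for the 8 keratinocyte markers, and -0.04 for both the 6 skeletal muscle and the 6 adipocyte markers, and without control replicate 2 these were 0.05, 0.05 and -0.01. With the length trend removed, the muscle and adipocyte medians turned to 0.14 and 0.23. None of these genes passed edgeR's test, and none of the markers was at 0 in all mice. The marker lists overlap with the lectin and co-receptor lists in genes such as Mrc1, Cd207, Clec9a, Cd209a, Mgl2, Klrb1c and Trem1.

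The genes whose pattern over the 8 mice was most like that of the receptors were sought among 13253 genes with a mean of at least 1 FPKM. Likeness was measured as Pearson's r with the mean standardised log2 CPM of the 10 receptors, over 8 mice that share their libraries with the receptors, and is a description. Control replicate 2, in which short transcripts were raised, is among these mice, and no value without it was computed. The highest were Fcgr4 (0.992), an activating Fc receptor, Ms4a6d (0.988), a membrane protein of myeloid cells, Samsn1 (0.985), Fcer1g (0.983), the partner chain itself, and Stfa2l1 (0.983), a neutrophil stefin. Since genotype alone contributes to these values, deviations from the genotype means were compared too, and Fcgr3 (0.981), Ms4a6d (0.975), Gap43 (0.975), Fcgr4 (0.972) and Cyba (0.970) were then the highest. Fcgr4 and Ms4a6d were in both sets. Fcgr4 was at 7.60 and 16.6 FPKM on average and Ms4a6d at 63.8 and 126.9 FPKM, and neither passed the test.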

How the data were processed

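For 4 TBX20fl/fl;K14-Cre and 4 TBX20fl/fl mice, the authors made single-end reads of 50 bases from injected cheek skin, cleaned them with SOAPnuke and aligned them with HISAT. The program that counted reads is not given in the sources used here. The authors deposited estimated counts, not normalised, of which 69.0% of those above 0 are not whole, and FPKM values made on the Dr. Tom platform. The 16 columns of TPM and normalised counts, the 40 group means and the authors' own fold changes with p-values were not used.

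Counts were rounded, and the 17124 genes whose counts summed to 10 or more over all mice were scaled by TMM and compared in R 4.3.3 by edgeR 4.0.16 (quasi-likelihood test). P-values were adjusted after Benjamini-Hochberg, with 0.05 as the threshold. CPM values are scaled by TMM. DESeq2 1.42.0, limma 3.58.1 on log2(FPKM + 1), RLE size factors, no filter, a replicate block, removal of a lowess trend with transcript length (span 0.3, mean count 50 or more, lengths derived from the deposited counts and FPKM) and leaving out each mouse were alternatives. The fits were also run on simulated counts. These held no trend with transcript length and so are no check on control replicate 2. The receptors and the lists were chosen with earlier results of these data known. Named were all receptors, key genes fixed per list, up to 3 genes per list and direction with the smallest p, and the 5 most like genes by each measure.

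The labels number the mice within each group and do not state that same-numbered mice belong together. Deviations from the group means of same-numbered mice correlated at 0.323, 0.275, 0.176 and 0.108. The main fit did not use the numbers, which served as a block in alternative fits only. Some differently numbered mice correlated as strongly, up to 0.32. The p-values measure the spread between these mice, 1 library each. Stretches of 50 bases were compared between annotated transcripts (GENCODE M21) to find shared sequence. Clec4a2 shared 6.83% with other genes, Clec4n 0.69% and Clec12a 0.46%.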

Additional observations from a re-analysis of the deposited data

Results flagged for a closer look

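Among 110 groups of 4 mice examined (the receptors, the named genes of the related lists and the marker sums, each in both genotypes), 3 held a value far from the others, and chance alone would give about 5.5 at 1 in 20. In control replicate 4 Clec4a4 was at 0.53 FPKM, with the other control mice at 0.21 to 0.24. In control replicate 2 Clec4b2 was at 0.76 FPKM, with the others at 0.15 to 0.21. In TBX20fl/fl;K14-Cre replicate 1 Il10 was at 1.05 FPKM, with the others at 1.62 to 1.68. None of the 10 receptors held such a value in either group.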

How the results depend on the processing

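Of 170 receptor values under 17 alternatives, 0 changed sign and 2, both of Clec5a, moved by more than the spread between mice. DESeq2 called 10 genes where edgeR called 0. The number of adaptor and proximal signalling genes that were lower was 13 to 20 of 24 when 1 mouse was left out, the highest without control replicate 2. It was 17 with the length trend removed and 11 on the log2(FPKM + 1) scale. With the replicate block the median of the receptors was -0.9962, 0 genes passed the threshold (1723 at an unadjusted p under 0.05, smallest adjusted p 0.405), and no call changed. On the log2(FPKM + 1) scale the median of all genes was 0.12, and 0.18 with a pseudocount of 0.1, so receptor medians of -0.77 and -0.83 on those scales are relative to that shift. Depth limits Clec4a4, Clec4b2, Il23a, Ly6g and Tbx20, which had few counts in each mouse.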
